A study of Mus musculus with 12 samples.

Results

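The genes described here are 10 secreted growth factors that act on blood vessels and connective tissue: Vegfa, Vegfb, Vegfc, Pgf, Pdgfa, Pdgfb, Pdgfc, Fgf2, Hgf and Igf1. They were chosen by name, as every probe of the expression array whose gene name is one of the 10, out of 34844 gene names on the array. All 10 had a probe, and together they had 18 probes and 33 spots. Total RNA from 12 cell samples had been hybridised to 1-colour Agilent mouse arrays, 1 array per sample, in 4 groups of 3. The first group was RAW264.7, a macrophage-like line of the mouse, transfected with the vector PLKO and called control below. The second was RAW264.7 cells transfected with a short hairpin RNA against Abhd5, a co-activator of triglyceride breakdown, called knockdown. The third and the fourth were CT-26, a line from a mouse colon carcinoma, after priming with control or with knockdown RAW264.7 cells, called control-primed and knockdown-primed. The labels give 1 hairpin with no sequence and no clone, and leave unsaid how cells were primed, if RAW264.7 cells were removed from the CT-26 cells before RNA was taken, and if samples of one group came from separate cultures, so p-values measure the spread between these samples only. The design asks what loss of Abhd5 changes in the macrophages and what those macrophages then change in cancer cells.

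The vascular endothelial growth factors are dimeric ligands of receptor tyrosine kinases. Vegfa, acting through Kdr, is the main driver of blood vessel growth and is induced by low oxygen, Vegfb and Pgf bind Flt1, and Vegfc binds Flt4 and drives the growth of lymphatic vessels. The platelet-derived growth factors, built from A, B and C chains, act on fibroblasts, pericytes and smooth muscle through Pdgfra and Pdgfrb. Fgf2 is a heparin-binding mitogen, Hgf is the ligand of Met, and Igf1 is the ligand of Igf1r; macrophages are a known source of several of these factors in tumours and wounds.

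Signals are given as log2 of the background-corrected spot signal minus the log2 value of the array's 75th percentile, so 0 is the level of the 75th percentile of its array, and a difference of 1 is a doubling. Levels of different probes cannot be set against each other on this scale, so each gene is compared only with itself. Where a gene has several probes, the one with the highest mean over the 12 arrays stood for it in counts, and the other probes are given beside it. Changes were tested with limma on the probes that were well above background on each of the 3 arrays of at least 1 of the groups compared, with Benjamini-Hochberg adjustment over all probes tested, two-sided, at an adjusted p of 0.05; ± after a change is its standard error from that fit, with 3 arrays per group unless slide 2 is named.

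The targeted gene was lower in the knockdown. The brightest of 3 Abhd5 probes read 1.38, 1.93 and 1.52 in the control and 0.25, 0.23 and 0.39 in the knockdown, which is 40.0% of the control signal (limma adjusted p = 0.00402); a second probe was at 40.7% (adjusted p = 0.0157) and the third at 58.2% (adjusted p = 0.0759). No Abhd5 probe passed the test between the CT-26 groups (limma adjusted p from 0.271 to 0.781). In the same order the 3 probes were at 105.1%, 71.6% and 81.2% of the control-primed signal. The RAW264.7 controls were split, with replicates 1 and 2 on slide 1 and replicate 3 on slide 2, beside the 3 knockdown arrays; the 6 CT-26 arrays made up slide 3. On slide 1, 56.5% and 57.9% of spots were well above background, against 69.0% to 73.0% on slide 2, so the 4 arrays of slide 2, which hold both RAW264.7 groups, are given as a second reading beside the growth factors' calls (not for Abhd5). In that fit control replicate 3 alone stands for the control and is assumed to vary as the knockdown arrays do, which holds for every p-value given for slide 2. On slide 3 the share of spots well above background was 73.0%, 77.3% and 68.3% on the control-primed arrays. It was lower on the knockdown-primed arrays, at 67.0%, 63.8% and 59.3%, and its part in the CT-26 changes was not tested. All 15 macrophage markers were higher in control RAW264.7 cells than in control-primed CT-26 cells, with a median difference of 5.99. Between these 2 groups 41.6% of all genes were called higher in control RAW264.7 cells and 25% lower. In the CT-26 cells Adgre1 and Spi1 were not well above background on any array, while Itgam was at 5.60 in control-primed cells, against 6.24 in control RAW264.7 cells. Epithelial markers were mixed. Of 12, 8 were tested between the control groups, with 4 higher in control-primed CT-26 cells and 1 higher in control RAW264.7 cells. Krt18 was at 2.43 in control-primed CT-26 cells and -3.30 in control RAW264.7 cells. Cdh1 was not well above background on any of the 6 CT-26 arrays and Epcam on 1. The CT-26 arrays carried high signal for collagens (Col1a2 at 5.30 in control-primed cells and -4.29 in control RAW264.7 cells).

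Knockdown RAW264.7 cells had more signal for 4 of the 10 growth factors. Vegfc rose 3.67-fold, Pgf 3.26-fold, Pdgfa 1.92-fold and Vegfa 1.76-fold, and none of the 10 fell past the threshold. Pdgfb, Vegfb, Fgf2 and Igf1 did not pass the test by their brightest probe, and Pdgfc and Hgf, which were not well above background on any RAW264.7 array, were not tested. Thus 4 of 8 tested members were called higher and 0 lower, where 7.59% of all genes tested were called higher and 13.2% lower. All 8 were well above background on all 6 arrays. The median change of the 8 was 0.42, against -0.30 over all genes. The 3 values of one group lay wholly above the 3 of the other for 7 of the 8 members, in either direction, and for 52.2% of all genes. On the 4 arrays of slide 2, 1 of the 8, Vegfc, passed the test, where 3.21% of all genes were called higher, and the 4 genes were still higher on the knockdown arrays, by 1.81, 0.90, 0.77 and 0.63 for Vegfc, Pgf, Pdgfa and Vegfa. Beside these, 3 of 15 macrophage markers rose in the knockdown and 0 fell (Adgre1 by 2.86, adjusted p = 0.000166; 3.37 on slide 2), with summed levels, in units of the array's 75th percentile, from 317 to 368 in the control and from 353 to 401 in the knockdown; their part in the result was not tested.

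**Figure D1:**
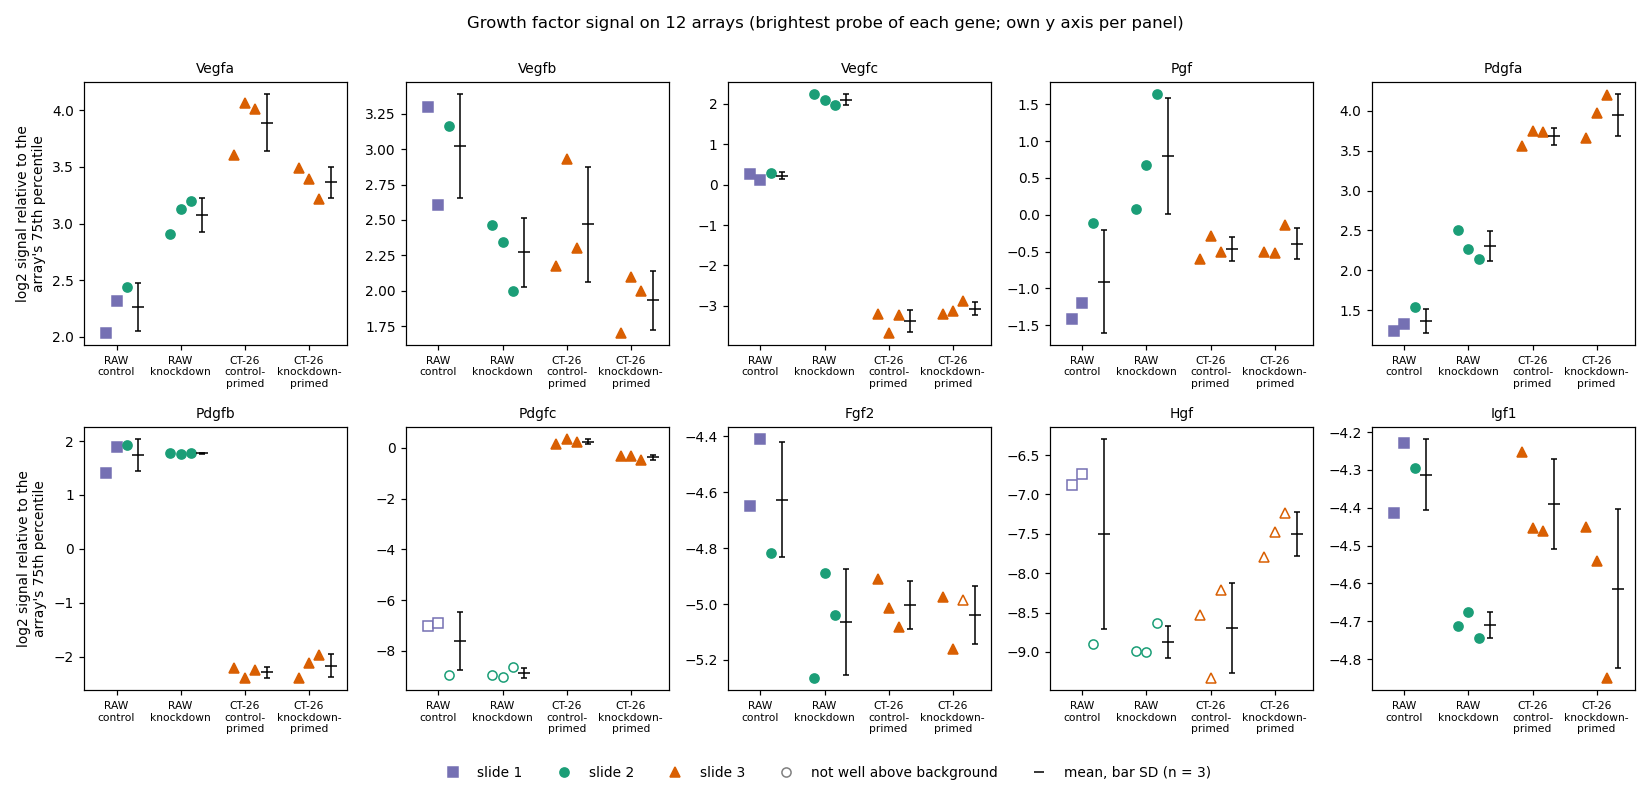
Level of the 10 growth factors on the 12 arrays, by the brightest probe of each gene; the y axis is log2 signal relative to the array's 75th percentile and differs between panels, symbols mark the slide, open symbols are values not well above background, and bars are mean ± SD of 3 arrays. Vegfc stands between 1.96 and 2.24 in knockdown RAW264.7 cells and between 0.12 and 0.29 in the control, while Hgf has open symbols throughout and Pdgfc has filled symbols in CT-26 cells only.

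Vegfc, the lymphatic ligand, was measured by 1 probe, whose 60 bases lie at chr8:55271533-55271592 on the plus strand of mm9, the build of the files. It is shown by its first 30 bases because the gene has the largest change per error among the members.
Vegfc probe: tctgtgtttattgaaccatgtggattactg
Its log2 level was 0.26, 0.12 and 0.29 in control RAW264.7 cells and 2.24, 2.10 and 1.96 in knockdown cells. Every knockdown array stood far above every control array, and the control of slide 2 (0.29) was close to the 2 of slide 1. The change was 1.88 ± 0.18 (limma adjusted p = 0.00033; 95% interval 1.47 to 2.28). On slide 2 it was 1.81. Vegfc was called under each of the 18 alternatives for this comparison, with changes from 1.76 to 2.09. The alternative that takes the probe brightest over the compared arrays repeats the main fit here, since Vegfc has 1 probe. In CT-26 cells the level was -3.21, -3.68 and -3.23 when control-primed and -3.19, -3.12 and -2.88 when knockdown-primed. The 2 primed groups lay next to each other without overlap, and the difference of 0.31 did not pass the test (adjusted p = 0.294; 95% interval -0.12 to 0.73). Control RAW264.7 cells were above control-primed CT-26 cells by 3.59 ± 0.20 (adjusted p = 3.28e-06), a 12.1-fold higher signal. The order of the 4 groups was knockdown RAW264.7, control RAW264.7, knockdown-primed and control-primed CT-26, of which the first pair differed past the test, the last did not, and the middle pair was not tested.

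Vegfa, the vessel growth factor, was measured by 2 probes at different sites of the gene. The brighter lies at chr17:46154387-46154446 on the minus strand (mm9), and its first 30 bases are given because it is the probe that stood for the gene in the counts.
Vegfa brighter probe: cagatcggtgacagtcactagcttgtcctg
The brighter probe read 2.03, 2.31 and 2.44 in control RAW264.7 cells and 2.91, 3.13 and 3.20 in knockdown cells. The groups did not overlap, and the control array of slide 2 was the highest of the 3 controls. The change was 0.81 ± 0.20 (limma adjusted p = 0.0247). The second probe read 1.502, 1.56 and 1.71 in the control and 1.90, 2.42 and 2.65 in the knockdown, a change of 0.73 ± 0.23 that just missed the threshold (adjusted p = 0.0522). On slide 2 the 2 probes gave 0.63 ± 0.21 (adjusted p = 0.149) and 0.61 ± 0.33 (adjusted p = 0.271). The call of the brighter probe was also lost without control replicate 1 (adjusted p = 0.0709), knockdown replicate 2 (0.0981) or knockdown replicate 3 (0.118).

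In CT-26 cells the brighter Vegfa probe moved the other way without passing the test: it read 3.604, 4.06 and 4.01 in control-primed cells and 3.49, 3.39 and 3.22 in knockdown-primed cells, a difference of -0.53 ± 0.18 (limma adjusted p = 0.100). The second probe read 3.04, 3.13 and 2.91 against 2.82, 3.31 and 3.02, a difference of 0.03 ± 0.18 (adjusted p = 0.934). The groups of the brighter probe did not overlap, and those of the second overlapped fully. Both probes were higher in control-primed CT-26 cells than in control RAW264.7 cells, by 1.63 ± 0.21 and 1.44 ± 0.17 (adjusted p = 0.000325 and 0.000221), so that control RAW264.7 cells held 32.3% and 36.9% of the CT-26 signal. By the brighter probe the order was control-primed CT-26, knockdown-primed CT-26, knockdown RAW264.7 and control RAW264.7, and the middle pair nearly met, at 3.22 and 3.20; that pair was not tested.

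Vegfb, the Flt1 ligand, had 1 probe (chr19:7057245-7057304, minus strand, mm9). It read 3.29, 2.61 and 3.16 in control RAW264.7 cells and 2.47, 2.35 and 2.001 in knockdown cells. All 3 knockdown values were below all 3 control values, and the change of -0.75 ± 0.24 just missed the threshold (limma adjusted p = 0.0549). It was called lower when only probes above background in both groups were tested (adjusted p = 0.0368) and without control replicate 2 (-0.96, adjusted p = 0.0227), and on slide 2 it was at -0.89 (adjusted p = 0.119). In CT-26 cells it read 2.18, 2.93 and 2.30 against 1.70, 2.10 and 2.001, a difference of -0.54 ± 0.23 (adjusted p = 0.155), again with no overlap. Its difference between the cell lines (0.55, adjusted p = 0.111) did not pass the test.

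Pgf, placental growth factor, had 1 probe, whose ends lie at chr12:86508335-86510337 on the minus strand of mm9, a span of 2003 bases for a probe of 60.
Pgf probe: tagaaactcacagactgaggaaccccaccc
It read -1.42, -1.20 and -0.11 in control RAW264.7 cells and 0.08, 0.67 and 1.64 in knockdown cells. The 2 controls of slide 1 were low and the control of slide 2 (-0.11) lay just under the lowest knockdown array (0.08), so the groups did not overlap but came close. The change was 1.70 ± 0.45 (limma adjusted p = 0.0332), and on slide 2 it was 0.90 ± 0.60 (adjusted p = 0.345). Its call was lost as well under quantile normalisation (adjusted p = 0.0542) and without control replicate 1 (0.0857), control replicate 2 (0.0873), knockdown replicate 2 (0.0822) or knockdown replicate 3 (0.109). In CT-26 cells it read -0.60, -0.29 and -0.50 against -0.51, -0.52 and -0.14, with partial overlap and a difference of 0.07 (95% interval -0.33 to 0.47). Control RAW264.7 and control-primed CT-26 cells overlapped (difference -0.44, adjusted p = 0.272).

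Pdgfa, the A chain, had 2 probes at chr5:139452925-139452984 and chr5:139452934-139452993 on the minus strand (mm9). They share 51 of their 60 bases and are not independent readings; capitals mark the stretch of 21 bases common to the first 30 of each.
Pdgfa brighter probe: CTCAGAGAGACAGTGAGAAAGcttccttgt
Pdgfa second probe: actgtagcaCTCAGAGAGACAGTGAGAAAG
The brighter probe read 1.24, 1.33 and 1.54 in control RAW264.7 cells and 2.51, 2.26 and 2.15 in knockdown cells. All knockdown values were above all control values, and the change was 0.94 ± 0.19 (limma adjusted p = 0.0138); the second probe gave 0.77 ± 0.19 (adjusted p = 0.0277). On slide 2 the brighter probe gave 0.77 ± 0.22 (adjusted p = 0.124) and the second 0.69 ± 0.24 (adjusted p = 0.159). The call of the brighter probe was also lost without knockdown replicate 1 (0.0528) or knockdown replicate 2 (0.0596). In CT-26 cells Pdgfa read 3.56, 3.74 and 3.73 when control-primed and 3.66, 3.97 and 4.19 when knockdown-primed, overlapping, with a difference of 0.27 ± 0.18 (adjusted p = 0.342). Its level was higher in the cancer cells: control RAW264.7 cells held 20.2% of the control-primed CT-26 signal, a difference of -2.31 ± 0.18 (adjusted p = 1.98e-05).

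Pdgfb, the B chain, did not differ past the test in either knockdown comparison. By its brighter probe (chr15:79826376-79826435, minus strand, mm9) it read 1.41, 1.89 and 1.93 in control and 1.78, 1.77 and 1.78 in knockdown RAW264.7 cells, a change of 0.03 (95% interval -0.43 to 0.49; limma adjusted p = 0.912), and on slide 2 of -0.16. In CT-26 cells it read -2.22, -2.41 and -2.25 against -2.40, -2.13 and -1.98, a difference of 0.12 (adjusted p = 0.646). The gene separated the lines instead: control RAW264.7 cells were higher by 4.03 ± 0.20, or 16.4-fold (adjusted p = 2.21e-06). The other probe gave 5.26 ± 0.38 for the same difference; in knockdown-primed CT-26 cells it was not well above background on any array.

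Pdgfc, a chain that is activated by proteolysis, showed the opposite pattern between lines. Its 1 probe (chr3:81017572-81017631, plus strand, mm9) is shown because Pdgfc was the member called in the CT-26 comparison.
Pdgfc probe: aaatatggagccattgctaacctacccctt
It was not well above background on any of the 6 RAW264.7 arrays, with readings from -9.03 to -6.89. In CT-26 cells it read 0.16, 0.33 and 0.25 when control-primed and -0.31, -0.34 and -0.49 when knockdown-primed. The 2 groups did not overlap, and Pdgfc fell by 0.62 ± 0.15 to 64.9% of the control-primed signal (limma adjusted p = 0.0453). This was close to the threshold: the call was lost with the replicate number as a block (adjusted p = 0.0972), under median centring (0.0561) and on leaving out any 1 of 5 of the 6 arrays (0.0653 without control-primed replicate 1, 0.148 without control-primed replicate 2, 0.181 without control-primed replicate 3, 0.0844 without knockdown-primed replicate 2 and 0.115 without knockdown-primed replicate 3), while the change itself stayed between -0.76 and -0.57. The signal was at least 51.8-fold lower in control RAW264.7 than in control-primed CT-26 cells, a bound against the lowest signal well above background on each dim array (fit: -7.86, adjusted p = 7.24e-06).

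Across the CT-26 comparison as a whole 9 of the 10 members were tested, of which 1, Pdgfc, was called lower and 0 higher. Of all genes 2.96% were called lower and 2.83% higher. Of these 9, Fgf2 was well above background on 2 of 3 knockdown-primed arrays and the others on all 6. The members' median was -0.04 against 0.11 over all genes, and the groups did not overlap for 4 of 9 members and for 36.2% of all genes. In this comparison the macrophage markers had summed linear levels, in units of the array's 75th percentile, from 56.0 to 61.9 in control-primed and from 58.4 to 75.7 in knockdown-primed cells. These sums are mostly the Itgam probe, at a log2 level of 5.60 in control-primed and 5.77 in knockdown-primed cells. The next marker, Cd14, was at 2.075 and 2.23, so the sums do not measure the amount of macrophage RNA. Of 12 tested markers 0 were higher and 1, Cd68, was lower (-0.83, limma adjusted p = 0.0219). In these bulk samples fewer cells of a type and less RNA per cell cannot be told apart, and the part of macrophage RNA in the Pdgfc result was not tested, beyond that Pdgfc itself was not above background in RAW264.7 cells.

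**Figure D2:**
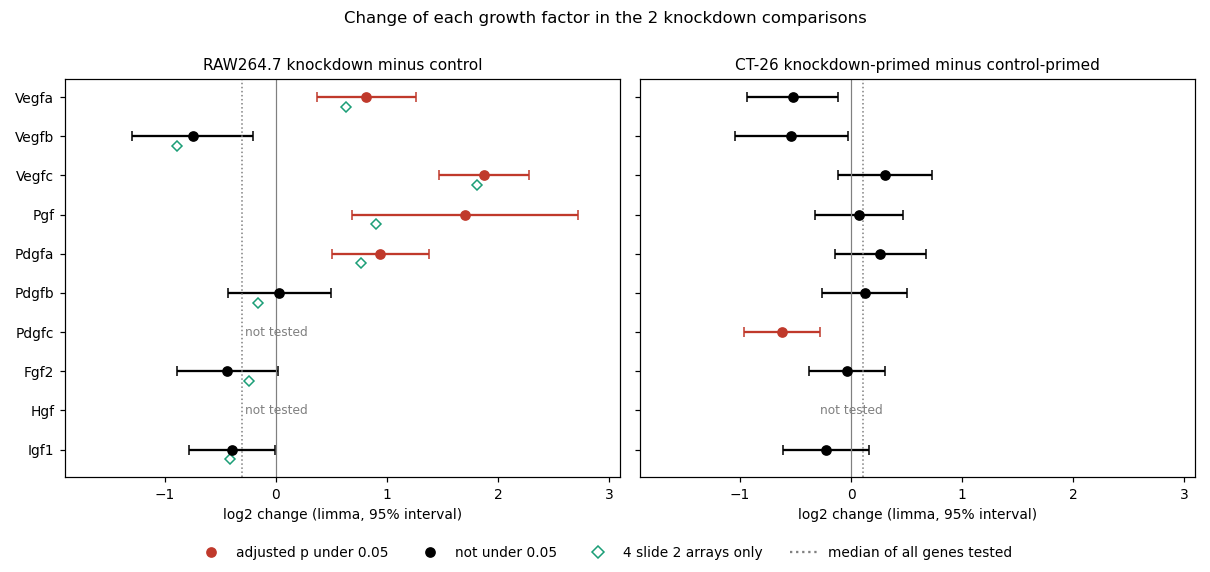
Log2 change of each growth factor with its 95% limma interval in knockdown against control RAW264.7 cells (left) and in knockdown-primed against control-primed CT-26 cells (right), by the brightest probe; red marks an adjusted p under 0.05, diamonds are the values on the 4 arrays of slide 2, and the dotted line is the median of all genes tested (-0.30 and 0.11). The 4 red points on the left are Vegfa, Vegfc, Pgf and Pdgfa, and the diamond of Pgf lies at 0.90, far left of its point at 1.70.

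Fgf2 was faint. Its brighter probe, printed in 10 spots per array, has its ends at chr3:37247934-37295153 (plus strand, mm9; 47220 bases). It read -4.65, -4.41 and -4.82 in control and -5.27, -4.89 and -5.04 in knockdown RAW264.7 cells, a change of -0.44 ± 0.20 (limma adjusted p = 0.127), and of -0.25 on slide 2. In CT-26 cells all 6 readings lay between -5.16 and -4.91. Its second probe was well above background on 1 of 12 arrays. Hgf (chr5:16124829-16124888, plus strand, mm9) was not well above background on any of the 12 arrays, with readings from -9.34 to -6.75, and no change is given for it.

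Igf1 gave readings that depended on the probe. Of its 5 probes, 4 were designed on 1 transcript (NM_010512) and the fifth, A_55_P2085979, on another (NM_184052). The brightest over all arrays was the fifth, at chr10:87378456-87378515 (plus strand, mm9). Probes A_55_P2085984 and A_55_P2031631 lie at chr10:87393561-87393620 and chr10:87393581-87393640, share 40 bases and are not independent; capitals mark 10 of the shared bases.
A_55_P2085979: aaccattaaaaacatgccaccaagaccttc
A_55_P2085984: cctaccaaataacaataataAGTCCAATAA
A_55_P2031631: AGTCCAATAAcattacaaagatgggcattt
Probe A_55_P2085979 was almost level over the 12 arrays, at -4.42, -4.23 and -4.29 in control RAW264.7, -4.71, -4.68 and -4.74 in knockdown RAW264.7, -4.25, -4.45 and -4.46 in control-primed CT-26 and -4.45, -4.54 and -4.85 in knockdown-primed CT-26 cells. Its knockdown change in RAW264.7 cells was -0.40 ± 0.17 (limma adjusted p = 0.111; -0.42 on slide 2), and it did not separate the lines (0.08, adjusted p = 0.705). Probe A_55_P2085984 instead read -3.26, -3.40 and -2.95 in control and -2.21, -2.54 and -2.57 in knockdown RAW264.7 cells, and was well above background on 1 of the 6 CT-26 arrays.

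By A_55_P2085984, Igf1 rose in the knockdown by 0.76 ± 0.20 (limma adjusted p = 0.0346), and on slide 2 the change was 0.51 ± 0.23 (adjusted p = 0.214). The overlapping probe A_55_P2031631 gave 0.54 ± 0.19 (adjusted p = 0.0743) and on slide 2 0.62 ± 0.25 (adjusted p = 0.190). Both read higher in control RAW264.7 than in control-primed CT-26 cells (adjusted p = 2.02e-06 and 4.08e-06). They were well above background on 1 and on 2 of the 3 control-primed arrays, so the fitted differences of 4.14 and 3.92 rest in part on background signal. The probes A_55_P2031636 and A_55_P2085974, further along the same transcript at chr10:87395924-87395983 and chr10:87399581-87399640, were well above background on 3 and on 0 of the 12 arrays. The direction of Igf1 in the knockdown therefore differed between probes, and the counts above use the probe that gave -0.40.

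**Figure D3:**
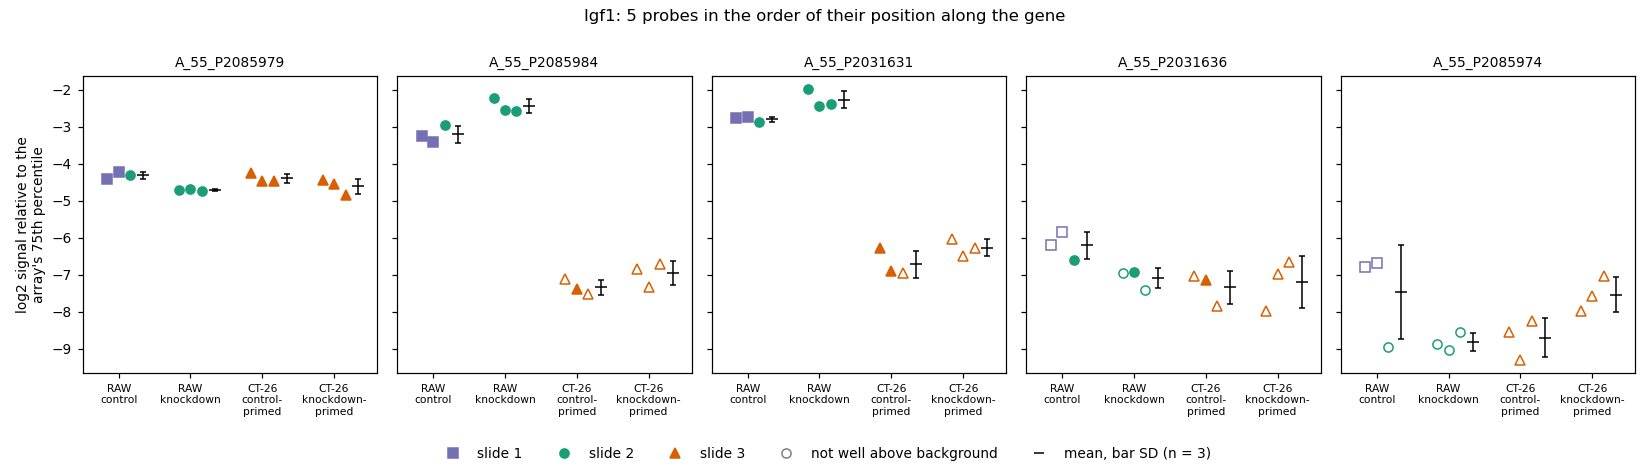
Level of the 5 Igf1 probes on the 12 arrays, ordered by position along the gene; the y axis is log2 signal relative to the array's 75th percentile, symbols mark the slide, open symbols are not well above background, and bars are mean ± SD of 3 arrays. The first probe stays between -4.85 and -4.23 in all groups, whereas the next 2 stand between -3.40 and -1.99 in RAW264.7 cells and at or under -6.04 in CT-26 cells.

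The change in RAW264.7 cells differed from the change in CT-26 cells for 3 members in a limma fit over the 12 arrays that tests the difference itself. The difference was 1.34 ± 0.26 for Vegfa (adjusted p = 0.00536), 1.57 ± 0.25 for Vegfc (adjusted p = 0.00176) and 1.63 ± 0.55 for Pgf (adjusted p = 0.0447), higher in RAW264.7 cells for all 3. Of 9 members tested 3 were called higher, where 6.94% of all genes were. With the 2 arrays of slide 1 left out, an alternative added after the data were seen, Vegfa (1.16, adjusted p = 0.0389) and Vegfc (1.51, adjusted p = 0.0175) passed and Pgf (0.83, adjusted p = 0.342) did not. The Pgf call also held in only 2 of 12 fits that left out 1 array each, those without RAW264.7 control replicate 3 and without knockdown replicate 1, with an adjusted p of up to 0.0936 in the others. Without RAW264.7 control replicate 3, 5 members were called; 1 of these is Pdgfc, which entered the fit through the CT-26 arrays only and has no measured RAW264.7 change. The second Vegfa probe gave 0.71 ± 0.29 (adjusted p = 0.0870). The Pdgfa difference (0.68 ± 0.25) did not pass (adjusted p = 0.0646), so its rise is not shown to be particular to RAW264.7 cells.

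Between the control groups of the 2 lines, 2 of 9 members tested were higher in RAW264.7 cells (Vegfc and Pdgfb) and 3 were higher in CT-26 cells (Vegfa, Pdgfa and Pdgfc), where 41.6% of all genes were higher and 25% lower. The groups did not overlap for 6 of the 9 and for 74.6% of all genes. Neither count is read as a result about the members. Cell line and slide coincide here and cannot be told apart; with the arrays of slide 1 left out the same 5 members were called.

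For members whose group means spanned 2 log2 units or more, the genes with the nearest pattern over the 12 arrays were found by the root mean square difference between levels centred on each gene's own mean. Nearest to Vegfc were Ptplad2 (0.16), Ccrl2 (0.20) and Tnfsf13b (0.20); Ccrl2, a chemokine receptor-like gene, went from -1.65 in control to 0.41 in knockdown RAW264.7 cells and stood at -5.04 and -4.78 in CT-26 cells. Nearest to Pdgfa were Ak1 (0.13), Fam194a (0.18) and Gm4117 (0.18), and nearest to Pdgfb were Tmem25 (0.21), Pstpip1 (0.21) and Gas7 (0.21). Nearest to Pdgfc were Btc (0.16), Fgf10 (0.21) and Pak3 (0.23), whose means were at or under -7.40 in both RAW264.7 groups. Pdgfc itself, at -7.62 in control and -8.88 in knockdown cells, and Fgf10 were not well above background on any RAW264.7 array. On those arrays the nearness to Pdgfc is therefore a nearness to background signal. Btc, an EGF-family ligand, went from 0.09 in control-primed to -0.46 in knockdown-primed CT-26 cells. These are descriptions over 12 arrays of 4 groups.

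The 4 genes that rose in the knockdown are shown with the 250 bases before their annotated start, from RefSeq promoter windows of build GRCm38.p6, where 9 of the 10 members had a window (Pdgfb is named only) and the most upstream start was taken for genes with 2. The windows lie at chr17:46032378-46032627 (minus strand) for Vegfa, chr8:54077282-54077531 (plus) for Vegfc, chr12:85177314-85177563 (minus) for Pgf and chr5:138994945-138995194 (minus) for Pdgfa. Capitals mark the GC box, GGGCGG or its reverse complement CCGCCC, the binding motif of Sp1.
Vegfa promoter window: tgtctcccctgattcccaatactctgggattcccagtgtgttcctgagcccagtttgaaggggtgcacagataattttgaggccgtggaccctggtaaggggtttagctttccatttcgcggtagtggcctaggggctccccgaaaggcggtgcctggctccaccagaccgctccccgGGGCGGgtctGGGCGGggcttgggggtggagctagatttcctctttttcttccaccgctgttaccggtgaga
Vegfc promoter window: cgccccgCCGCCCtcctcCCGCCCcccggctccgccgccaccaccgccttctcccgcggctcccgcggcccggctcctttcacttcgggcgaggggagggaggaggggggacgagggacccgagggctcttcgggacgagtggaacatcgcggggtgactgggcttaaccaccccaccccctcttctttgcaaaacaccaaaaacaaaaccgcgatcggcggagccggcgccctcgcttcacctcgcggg
Pgf promoter window: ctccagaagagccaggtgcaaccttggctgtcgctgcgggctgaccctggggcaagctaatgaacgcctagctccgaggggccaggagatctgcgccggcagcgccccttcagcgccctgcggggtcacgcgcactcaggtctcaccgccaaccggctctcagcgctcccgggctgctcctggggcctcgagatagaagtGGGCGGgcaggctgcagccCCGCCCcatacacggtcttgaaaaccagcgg
Pdgfa promoter window: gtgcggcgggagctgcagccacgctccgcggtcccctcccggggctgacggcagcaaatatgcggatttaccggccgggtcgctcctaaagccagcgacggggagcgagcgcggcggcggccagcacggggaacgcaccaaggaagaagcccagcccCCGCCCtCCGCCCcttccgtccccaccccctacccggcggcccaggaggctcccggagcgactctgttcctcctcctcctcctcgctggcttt
Each of the 4 held 2 GC boxes, on either strand, and a GC box was found in 32.7% of all 32851 windows of this length. It was not particular to the genes that rose, since Vegfb held 4 and Fgf2 held 1. The windows of Pdgfc, Hgf and Igf1 held none. The count depends on the start taken: among the genes that rose, the window of the second start held 1 GC box for Vegfa, 1 for Pdgfa and 0 for Pgf. The core of the hypoxia response element, ACGTG on either strand, was in none of the 9 windows and in 16.6% of all, although the window of the second Vegfa start held 1. The AP-1 motif TGANTCA was in the Igf1 window and in 6.75% of all, and TATAAA on either strand was in none of the 9 and in 12.4% of all. A match is only a run of letters, and its absence says nothing of a factor.

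Of 15 receptor genes 10 were tested, 0 were called higher and 1 lower, Fgfr4 (-0.98 ± 0.26, limma adjusted p = 0.0345), where 7.59% of all genes were called higher and 13.2% lower, and the median change was -0.29, as over all genes (-0.30). Fgfr3 (-0.54) and Kdr (-0.46), the main Vegfa receptor, were next by p and did not pass. On slide 2 no receptor passed, and Fgfr4 was at -0.53 (adjusted p = 0.257). Flt4, the receptor of Vegfc, was not well above background on any of the 12 arrays, and Pdgfra, Pdgfrb, Met and Igf1r were not above it on any RAW264.7 array. In CT-26 cells 14 were tested, of which 2 fell, where 2.96% of all genes did: Nrp1, a VEGF co-receptor, by 0.98 ± 0.18 (adjusted p = 0.0226), and Pdgfrb by 0.65 ± 0.15 (adjusted p = 0.0417). Fgfr3 (-0.89, adjusted p = 0.0603) did not pass, and 0 rose.

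Related ligands were mixed. In RAW264.7 cells 7 of 17 were tested and 3 rose: Mst1, the ligand of Mst1r, by 1.15 ± 0.21 (limma adjusted p = 0.00859), Fgf18 by 2.73 ± 0.53 (adjusted p = 0.0115) and Hbegf, a heparin-binding EGF-family ligand, by 1.63 ± 0.36 (adjusted p = 0.0178). None fell, against 7.59% higher and 13.2% lower over all genes. On slide 2 none of the 3 passed, with changes of 1.23, 2.44 and 0.81 and adjusted p of 0.0820, 0.170 and 0.132. Angpt1 was well above background on 1 control array and on 0 of 3 knockdown arrays, so no size is given for it. In CT-26 cells 11 were tested, of which 1 rose and 2 fell, where 2.83% of all genes were called higher and 2.96% lower. Fgf7, a mitogen for epithelium, rose by 0.83 ± 0.18 (adjusted p = 0.0370), Fgf1 fell by 1.54 ± 0.24 (adjusted p = 0.0148; well above background on 2 of 3 knockdown-primed arrays) and Figf, which encodes Vegfd, fell by 0.96 ± 0.23 (adjusted p = 0.0421).

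Of 27 genes for binding, processing and co-receptor proteins, 22 were tested in RAW264.7 cells, of which 7 rose, 4 fell and 11 did not pass, against 7.59% higher and 13.2% lower over all genes. The 3 with the smallest p were Igfbp6, an Igf2-preferring binding protein, at 3.36 ± 0.39 (limma adjusted p = 0.000918), Plat, tissue plasminogen activator, which can cleave Pdgfc, at 3.34 ± 0.42 (adjusted p = 0.00136), and Gpc1, a heparan sulfate proteoglycan, at 1.35 ± 0.19 (adjusted p = 0.00290). Control cells had Igfbp6 above background on 2 and Plat on 1 of 3 arrays. On slide 2, with its 1 control array, the changes of Igfbp6, Plat and Gpc1 were 2.70, 2.95 and 1.18. In CT-26 cells 0 of 20 passed; the smallest p were those of Plat (0.54, adjusted p = 0.0663), Furin (0.48, adjusted p = 0.113) and Hpn (0.43, adjusted p = 0.133).

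Of 14 genes listed as angiogenesis inhibitors, 12 were tested in RAW264.7 cells, of which 3 rose and 1 fell, against 7.59% and 13.2% of all genes. Pf4, a platelet and macrophage chemokine that blocks vessel growth, rose by 5.66 ± 0.21 (limma adjusted p = 5.61e-06), from a mean of -2.05 to 3.61. Adamts1, a metalloprotease that binds Vegfa, was not well above background on any control array and was at least 10.3-fold higher in the knockdown (adjusted p = 0.000274). Serpinf1, which encodes the inhibitor PEDF, fell by 2.23 ± 0.28 (adjusted p = 0.00149). The third of the list to rise was Vash2 (0.93, adjusted p = 0.0293), named as the last of the count and not taken here as an inhibitor of vessel growth. On slide 2, with its 1 control array, the change was 5.56 for Pf4, -2.82 for Serpinf1 and 0.47 for Vash2. Thbs1 was not well above background on any control array, so it has only a bound, at least 1.54-fold over the 6 arrays, where it did not pass (adjusted p = 0.0707). In CT-26 cells 13 were tested, where 2.83% of all genes were called higher and 2.96% lower. Thbs1, thrombospondin, rose by 1.87 ± 0.17 (adjusted p = 0.00278), Sema3f fell by 1.10 ± 0.26 (adjusted p = 0.0412), and Timp3 (-1.22, adjusted p = 0.0657) did not pass.

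The hypoxia list held the regulators of the hypoxia response and its usual targets. All 26 were tested in both comparisons; in RAW264.7 cells 6 rose and 0 fell by limma, where 7.59% of all genes were called higher and 13.2% lower. Among the 6 were Hilpda (1.16 ± 0.24, adjusted p = 0.0153) and the regulators Hif1a (0.97 ± 0.22, adjusted p = 0.0203) and Hif1an (1.15 ± 0.29, adjusted p = 0.0297). With the 1 control array of slide 2, the changes of Hilpda, Hif1a and Hif1an were 0.67, 0.78 and 0.65. The smallest p were those of P4ha2, a collagen prolyl hydroxylase, at 3.68 ± 0.47 (adjusted p = 0.00158), Ero1l, an oxidase of the endoplasmic reticulum, at 1.49 ± 0.23 (adjusted p = 0.00424) and Epas1, which encodes Hif2a, at 1.45 ± 0.28 (adjusted p = 0.0104). On slide 2, 1 of 26 passed, where 3.21% of all genes were called higher: P4ha2 (2.58, adjusted p = 0.0470), and Ero1l (1.23, adjusted p = 0.0680) and Epas1 (0.90, adjusted p = 0.0652) did not. In CT-26 cells 1 of 26 rose, Pfkfb3 (0.67 ± 0.16, adjusted p = 0.0462), and 1 fell, Ankrd37 (-0.79 ± 0.19, adjusted p = 0.0471), with Eno1 next (0.57, adjusted p = 0.0592). Of all genes in that comparison 2.83% were called higher and 2.96% lower.

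**Figure D4:**
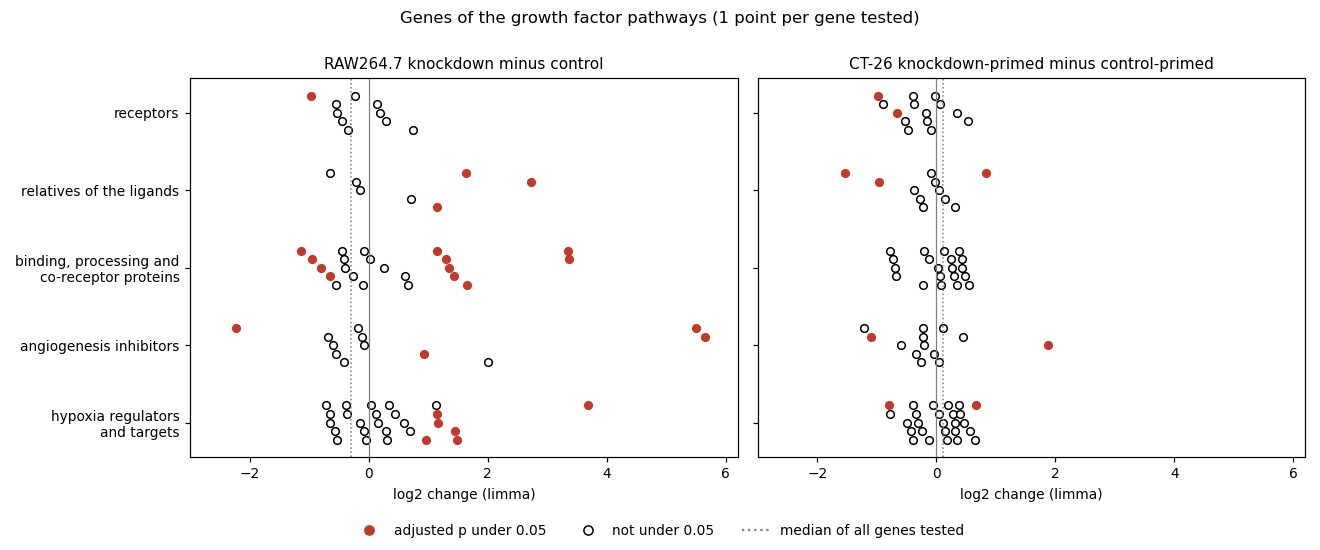
Log2 change of each tested gene of the 5 pathway lists in the RAW264.7 comparison (left) and the CT-26 comparison (right), 1 point per gene with vertical offsets for legibility only; filled red points have an adjusted p under 0.05 and the dotted line is the median of all genes tested. Pf4 at 5.66 and Adamts1 at 5.50, the fitted value of a gene with no control array above background, are the points farthest right, and the CT-26 panel has few red points, among them Thbs1 at 1.87.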

How the data were processed

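Total RNA from 12 samples was hybridised to Agilent mouse arrays, 1 per sample. Per the file headers and the submitters' processing notes, the software was Agilent Feature Extraction 10.7.3.1, and the deposited scanner files hold linear spot intensity, corrected for background within the array and not scaled between arrays; probe coordinates are mm9. The deposited table of processed values states no scale: read from the values, the authors' 6 RAW264.7 columns are log2 with the 75th percentile subtracted and the 6 CT-26 columns linear intensity, of which 5 were nearest to the scanner file of another replicate of their group; it served as an alternative only. Control spots (3671 per array) and flagged spots (172 to 272) were left out, log2 signals had the array's 75th percentile subtracted, and spots of a probe were averaged. A probe was well above background on an array if a share of at least 0.5 of its spots were. Fits used limma 3.58.1 in R 4.3.3, over 37199 probes for RAW264.7, 37501 for CT-26, 40756 for the difference and 38371 for the lines; the code was tested on simulated data. Genes keep the array's names. Sequences are given for 9 of the 18 probes, and others are not reported here. With 3 arrays per group, the number of arrays limits precision. The labels state no pairing by replicate number, and the main fits took the samples as unpaired. Deviations of same-numbered arrays correlated between -0.097 and 0.003 (RAW264.7) and between -0.185 and 0.011 (CT-26). The RAW264.7 controls span 2 slides and the knockdown arrays 1, so these values cannot decide if samples were paired there. With the replicate number as a block Pgf changed by 1.70 ± 0.20 (limma adjusted p = 0.00272).

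The genes, lists and tests were chosen with earlier results of these data known. Named were all 10 members with every probe, Abhd5, and up to 3 genes per list with the smallest p in each knockdown comparison. Markers that touch a result and the 3 nearest profiles of members spanning 2 log2 units were named too. Some list genes were named beyond that rule, among them Hilpda, Hif1a, Hif1an and Vash2. Alternatives tried were other scaling, background and filters, flagged spots kept, 1 probe per gene name, the deposited table, slide and replicate blocks, slide 2 alone and leaving out each array; leaving out slide 1 from the last 2 comparisons and the probe brightest over the compared arrays were added after the data were seen.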

Additional observations from a re-analysis of the deposited data

Results flagged for a closer look

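For 3 growth factors the knockdown change in RAW264.7 cells differed from the change in CT-26 cells by the test of the difference in limma: Vegfa by 1.342 log2 units (adjusted p = 0.00536), Vegfc by 1.57 (adjusted p = 0.00176) and Pgf by 1.632 (adjusted p = 0.0447). The second Vegfa probe did not pass the same test (0.708, limma adjusted p = 0.0870), and the Pgf call held in 2 of 12 fits that left out 1 array each. Cell line and slide coincide except that the RAW264.7 control is split over 2 slides. Outlying arrays were not looked for, since each group has 3.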

How the results depend on the processing

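Of the single-gene values, those not listed kept their direction. In the RAW264.7 comparison 4 members were called; 5 were with only probes above background in both groups (Vegfb too), 2 with every probe tested, 1 with slide as a fixed block, 1 on slide 2 arrays only, and 1 to 4 on leaving out 1 array. Pdgfb turned to -0.158 with the slide block and on slide 2 (range -0.135 to 0.127 without 1 array), and Igf1 to 0.535 by the probe brightest over the compared arrays. In the CT-26 comparison 1 member was called, and 0 with median centring, with every probe tested, or with the replicate block, and 0 to 1 on leaving out 1 array. The replicate number as a block left 4 members called in the RAW264.7 comparison and 5 between the lines. Fgf2 turned to 0.008 with median centring, 0.01 with quantile normalisation, 0.004 with normexp and 0.056 with flagged spots kept (-0.077 to 0.024 without 1 array), and Pgf ranged from -0.053 to 0.16 without 1 array. In the difference between lines 3 members were called, 5 with normexp and 2 to 5 without 1 array. There, median centring turned Pdgfb to 0.083 and Igf1 to 0.001, quantile normalisation turned Vegfb to 0.165, Pdgfc to 0.666 and Igf1 to 0.059, normexp turned Vegfb to 0.302, Pdgfc to 0.865 and Igf1 to 0.043, leaving out slide 1 turned Pdgfc to 0.679, and Pdgfb ranged from -0.258 to 0.006 without 1 array. Between the lines, quantile normalisation turned Vegfb to -0.03 and leaving out slide 1 turned Pgf to 0.355. The causes were not tested. Over all genes tested in RAW264.7 cells, 5261 were called, 1921 higher and 3340 lower, against 2339 and 1337 with median centring, 2114 and 1668 with quantile normalisation, 841 and 241 with slide as a block, and 875 and 428 on slide 2; in all, 2134 were called with every probe tested and 1520 to 6939 without 1 array. In CT-26 cells 1438 were called, 18 with every probe tested, 753 with the replicate block and 22 to 2215 without 1 array, and in the difference 7770, 3048 with slide 1 left out and 3939 to 9582 without 1 array. In RAW264.7 cells the median change was -0.304, and -0.085 with median centring, on which Vegfa, Vegfc, Pgf and Pdgfa changed by 1.03, 2.09, 1.92 and 1.16. Signal near background limits Fgf2 and Hgf.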
